A study of Drosophila melanogaster with 6 samples.

Results

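Cytochrome P450 genes encode heme enzymes that insert oxygen into steroids, fatty acids, hydrocarbons and foreign chemicals. They were followed across 3 genotypes of stage 16 Drosophila melanogaster embryos on 1-colour Affymetrix arrays. The members were all probe sets whose single gene symbol was a Cyp name made of a family number, a subfamily letter and a gene number, together with the ecdysone synthesis genes spo, phantom (phtm, formerly phm), dib, sad and shd. This gave 88 probe sets for 85 genes, of 18952 probe sets and 11982 singly named genes on the array. The current gene table lists 86 such genes, and the remaining one, Cyp9f3, had no probe set of its own here.

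The groups had 2 arrays each. Wild type was strain w1118, the mutant carried the allele grhB37, and the overexpression embryos expressed grh under 69B, a GAL4 driver line. grh encodes Grainy head, a transcription factor of epidermal differentiation, and both altered strains were compared with wild type to find its effect. No group had the driver without the grh transgene, a common strain background is not stated, and each array read RNA of whole embryos. Strain and embryo collection therefore cannot be told apart from an effect of grh. Because each array read many tissues at once, fewer cells of a type and less RNA per cell cannot be told apart. The labels do not say whether the 2 arrays of a genotype came from separate collections, so the p-values speak for the spread of these arrays alone. For the brighter of the 2 grh probe sets, log2 values were 7.36 and 7.45 in wild type, 9.05 and 9.02 in the arrays labelled grh mutant, and 12.27 and 12.38 with grh overexpressed. The other read under 4 on every array and was lowest with grh overexpressed, with means of 3.25, 3.53 and 2.46 in that order. The higher reading in the mutant does not check that label, because the sources used here do not say what the allele does to the transcript.

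P450 enzymes work with redox partners that hand them electrons: enzymes in the endoplasmic reticulum take them from a P450 reductase or cytochrome b5, and those in mitochondria from ferredoxins. In insects a small set of conserved P450s, the Halloween enzymes, builds the moulting hormone ecdysone and its active form from sterols in the prothoracic gland and peripheral tissues. The large families 4, 6 and 9 have many tandem copies and are best known for handling insecticides, plant toxins and lipids in gut, fat body and Malpighian tubule. Families are commonly placed in 4 clans (CYP2, CYP3, CYP4 and mitochondrial), which are used below.

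Of the 85 genes, 50 were detected, meaning 2 or more arrays with a log2 value of 4 or higher. Another 19 lay at the floor, within 0.25 of the lowest value in the table (2.27) on all 6 arrays, and 16 were dim, between these classes, with 4.10 in Cyp9h1 the highest reading among them. The detected share was 58.8%, against 63.8% of the 11897 other singly named genes, and the share at the floor was 22.4% against 25.9%. By family, 15 of 22 genes of family 4, 14 of 23 of family 6 and 4 of 5 of family 9 were detected, against 2 of 6 in the Cyp313 family and 2 of 5 in family 12. By clan, 5 of 6 CYP2 genes, 24 of 37 CYP3 genes, 17 of 32 CYP4 genes and 4 of 10 mitochondrial genes were detected. Of the 85 genes, 31 had an array at 4 or more in all 3 genotypes, while 11 did so in grh overexpression alone and 3 in grh mutant alone. Among all 8632 rows tested, 341 did so in grh overexpression alone, 204 in grh mutant alone and 43 in wild type alone. Among the 50 detected P450 genes these counts were 10, 3 and 0. A gene above 4 in 1 genotype alone entered the tests through that genotype, so the direction of its change there was fixed by the filter.

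**Figure D1:**
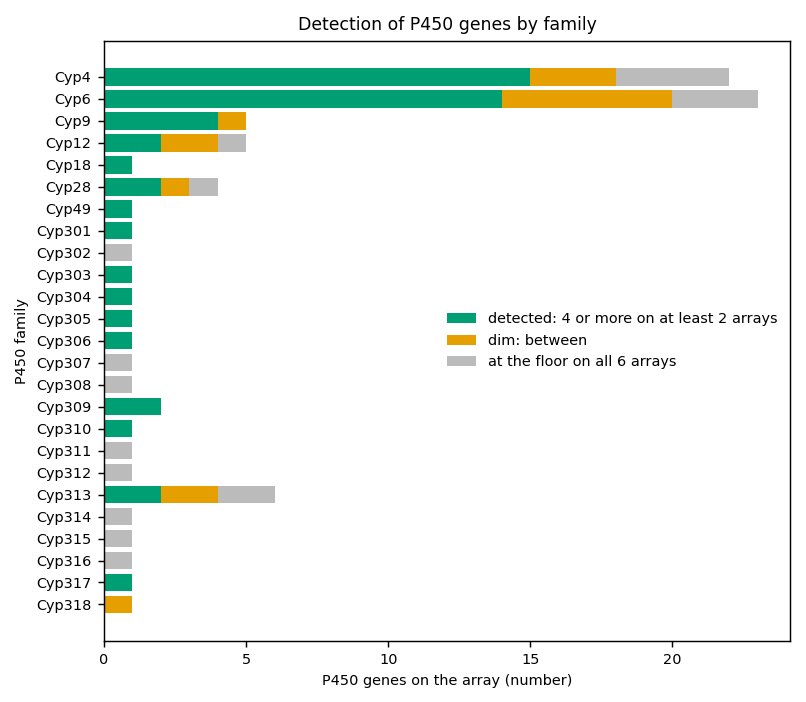
Number of P450 genes on the array (x axis) in each family (y axis), split into detected (2 or more arrays at a log2 value of 4 or higher), at the floor (within 0.25 of the lowest value on all 6 arrays) and dim (neither). Families 4 and 6 hold most detected genes, with 15 of 22 and 14 of 23.

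Among the ecdysone synthesis genes, most were not above the floor in any genotype. The probe set for spo, whose product acts early in the pathway, read between 2.29 and 2.33 on all 6 arrays. The genes dib and sad encode mitochondrial hydroxylases that act late in the pathway. The dib probe set stayed at 2.27, and that of sad read between 2.32 and 2.34. The brighter of the 2 probe sets for shd, which turns ecdysone into its active form in peripheral tissues, read between 2.28 and 2.43, and the other stayed at 2.27. These 4 genes were not tested, and their readings give only an upper bound on the transcript.

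The gene phtm, which encodes the hydroxylase phantom of the same pathway, was the exception among them. It read 3.91 and 3.90 in wild type, 3.18 and 2.71 in grh mutant, and 4.91 and 4.63 in grh overexpression. The groups did not overlap, but the 2 mutant arrays lay 0.47 apart, the largest replicate gap among the tested P450 genes in that group. Only grh overexpression passed 4, so its rise was fixed by the filter, and it was at least 1.71-fold. Wild type and mutant were both dim, so no fold is given for them.

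Cyp18a1, whose product inactivates ecdysteroids, went the other way. It read 10.83 and 10.90 in wild type, 11.12 and 11.18 in grh mutant, and 9.31 and 9.39 in grh overexpression, with no overlap between groups. It was 2.87-fold lower in grh overexpression (log2 fold change -1.52, SE 0.05, limma adjusted p = 4.52e-11) and in grh mutant 1.22-fold higher (adjusted p = 0.000118). Its other probe set read 9.27 and 9.23, then 9.64 and 9.54, then 7.57 and 7.49 in the same order, so both probe sets placed the genotypes alike. Cyp18a1 and phtm are neighbours on the X chromosome with no protein-coding gene between them.

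The non-member genes of ecdysteroid synthesis and transport on a chosen list of 10 gave further readings, with 9 on the array and 6 tested. In grh overexpression 4 were higher and 2 lower, where 36.0% and 44.1% of all rows were, and 3 of these 6 were fixed by the filter. In grh mutant 2 were higher and 3 lower, 1 of them fixed, where 36.3% and 44.6% of all rows were. The gene spok, a P450 paralogue of spo that the naming rule leaves out, read 4.63 and 4.82 in wild type, 3.37 and 3.46 in grh mutant, and 2.38 and 2.35 in grh overexpression. It passed 4 in wild type alone, so the filter fixed its fall in both altered genotypes. The short-chain dehydrogenase gene sro read 2.40 and 2.34, 2.29 and 2.29, and 4.67 and 4.34 in that order, so its rise in grh overexpression was fixed in the same way. The gene tor, which encodes the receptor for the hormone PTTH in the prothoracic gland, rose from 2.83 ± 0.04 (SD, n = 2) to 4.71 ± 0.07, also fixed. Its ligand gene Ptth and the regulator gene ouib were at the floor on all 6 arrays, and nvd, the first enzyme of the pathway, stayed between 2.28 and 2.58. The cholesterol-binding gene Start1 was lower in both altered genotypes, at 7.20 ± 0.03 in grh mutant and on both overexpression arrays at 8.0, against 8.31 ± 0.06 in wild type.

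Among the other CYP2 members, Cyp303a1 had the highest lower bound on its increase of any P450 gene in grh overexpression. Cyp303a1, which is needed for the structure of external sensory organs, stayed at 2.27 on both wild type and both mutant arrays and read 10.24 and 10.23 in grh overexpression. It was at least 75.3-fold higher than wild type, a rise whose direction the filter fixed. Cyp305a1 was measured in every genotype, at 5.28 and 5.26 in wild type, 4.81 and 4.75 in grh mutant, and 9.05 and 9.01 in grh overexpression. It was 13.6-fold higher in grh overexpression (limma adjusted p = 5.39e-13) and 1.40-fold lower in grh mutant (adjusted p = 3.09e-05). Cyp304a1 was highest in wild type, at 9.67 and 9.60, against 8.46 and 8.48 in grh mutant and 9.05 and 8.94 in grh overexpression. It was thus 2.24-fold lower in grh mutant (adjusted p = 2.56e-09) and 1.55-fold lower in grh overexpression (adjusted p = 3.71e-07).

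Of the 4 detected mitochondrial members 2 rose and 2 fell in grh overexpression, none fixed by the filter. Of all rows, 36.0% were higher and 44.1% lower there. Cyp301a1, which acts in cuticle formation, read 6.96 and 6.95 in wild type, 7.31 and 7.32 in grh mutant, and 7.96 and 7.86 in grh overexpression. It was 1.94-fold higher in grh overexpression (limma adjusted p = 2.73e-08) and in grh mutant 1.28-fold higher (adjusted p = 0.000127). Cyp49a1 was also higher in both altered genotypes, by 1.48-fold in grh mutant and 1.39-fold in grh overexpression, and those genotypes differed by -0.08 (95% confidence interval -0.20 to 0.03), or -0.21 and called after median centring (adjusted p = 0.00266). Cyp12c1 read 6.33 and 6.32 in wild type, 6.46 and 6.47 in grh mutant, and 4.41 and 4.49 in grh overexpression, a 3.67-fold decrease there (adjusted p = 4.04e-10). Its change of 0.14 in grh mutant (95% confidence interval -0.02 to 0.30) was called only after median centring or without the intensity trend (adjusted p = 0.0364 and 0.0417). Cyp12e1 read 4.95 and 4.85, 5.84 and 5.90, and 2.65 and 2.62 in the same order. It was 1.96-fold higher in grh mutant (adjusted p = 3.83e-07) and at least 1.87-fold lower in grh overexpression (adjusted p = 1.84e-10). Its other probe set gave 4.78 ± 0.01, 5.55 ± 0.15 and 2.75 ± 0.02, the same order. The lufenuron resistance gene Cyp12a4 stayed under 4 everywhere, at 2.70 in wild type and mutant and 3.22 and 3.39 in grh overexpression.

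**Figure D2:**
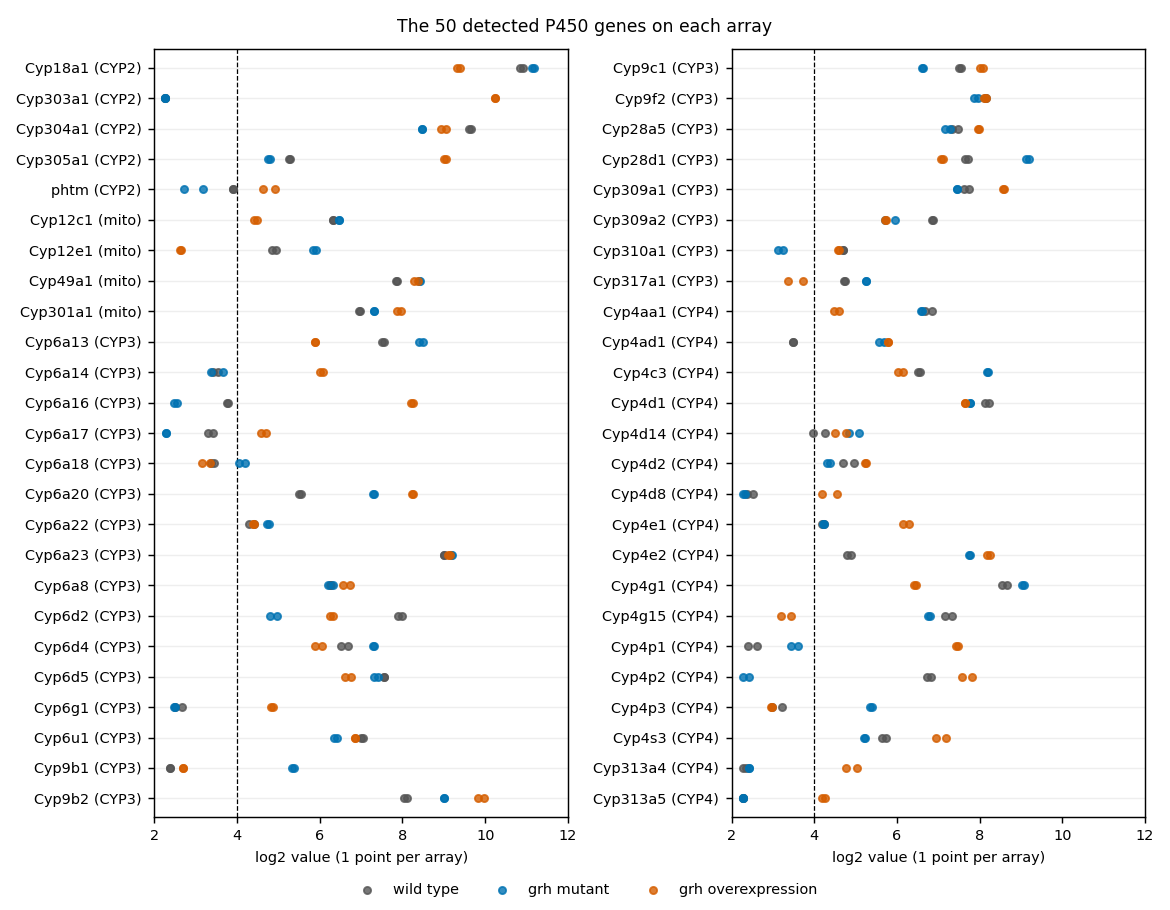
Log2 value of each detected P450 gene (x axis, 1 point per array, with the dashed line at the detection minimum of 4), coloured by genotype, with the clan in brackets (mito, mitochondrial). Cyp303a1 and Cyp305a1 show the widest gap between grh overexpression and the other genotypes in the CYP2 clan, while Cyp4g15 and Cyp12e1 lie lower in grh overexpression than in the other genotypes.

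The family 4G members, which act on very long lipids, fell in grh overexpression. Cyp4g1, the oenocyte enzyme that makes cuticular hydrocarbons by removing a carbon from fatty aldehydes, read 8.67 and 8.55 in wild type, 9.06 and 9.03 in grh mutant, and 6.45 and 6.42 in grh overexpression. It was 4.52-fold lower in grh overexpression (log2 fold change -2.18, SE 0.06, limma adjusted p = 1.33e-11) and in grh mutant 1.35-fold higher (adjusted p = 2.01e-05). Cyp4g15, which is expressed in the nervous system, read 7.33 and 7.17 in wild type, 6.75 and 6.80 in grh mutant, and 3.43 and 3.19 in grh overexpression. It was at least 9.51-fold lower in grh overexpression (adjusted p = 6.62e-12) and 1.39-fold lower in grh mutant (adjusted p = 0.000629). The 3 genotypes did not overlap for either gene, as for 45 of the 50 tested members between mutant and wild type and 47 of 50 between overexpression and wild type, where 90.3% and 89.6% of all rows did not overlap.

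Markers of the cells in which these genes are known were read on the same arrays. Of 6 genes listed for oenocytes 5 were on the array and 3 tested, of which 1 rose and 1 fell in grh overexpression. The genes on this list were not checked for expression in other tissues. FASN3, a fatty acid synthase gene of oenocytes, was at 6.38 ± 0.08 (SD, n = 2) in wild type, 7.17 ± 0.04 in grh mutant and 3.60 ± 0.26 in grh overexpression. FarO, a reductase gene of those cells, and Elo68alpha were dim throughout. The log2 of the summed signal of the 5 listed genes ranged from 9.29 to 9.36 in wild type, 9.27 to 9.40 in grh mutant and 9.05 to 9.17 in grh overexpression. The largest terms of that sum were app and Hnf4, whose means lay between 8.25 and 8.56 and between 7.35 and 7.53. FarO, though dim, had means of 3.59, 3.06 and 2.70 in that order of genotypes. Elo68alpha, also dim, went the other way, with means of 2.39, 2.43 and 3.17. All 5 glia markers, repo included, fell in grh overexpression, where 44.1% of all rows were lower, and in grh mutant 2 rose and 2 fell. Their summed signal read 11.31 on both wild type arrays, 11.61 and 11.64 in grh mutant, and 10.27 and 10.28 in grh overexpression. The part of these cells in the change of Cyp4g1 and Cyp4g15 was not tested.

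The 50 tested members were called about as often as the array at large between grh mutant and wild type. In grh mutant 21 P450 genes were higher and 19 lower at a limma adjusted p under 0.05, which is 80.0% of those tested, where 80.9% of all 8632 rows were called (36.3% higher and 44.6% lower). Changes of at least 2-fold by the fitted values were called for 15 members, 8 higher and 7 lower, or 30.0%, against a background of 17.8% (10.8% higher and 7.06% lower). Without the 3 members whose rise the filter fixed (Cyp4p3, Cyp9b1 and Cyp6a18), 13 of 47 passed, or 27.7%, against 16.5% of rows treated alike. Among the 15, Cyp6a16, Cyp6a17 and Cyp4p1 were dim in both genotypes. With dim groups set at their bound, 7 members were higher and 4 lower by at least 2-fold, or 22.0% against 15.6%. The median log2 fold change was 0.01, against -0.07 over all rows, and the median absolute change was 0.54 against 0.49.

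In grh overexpression, 28 members were higher and 17 lower than in wild type, or 90.0% of the 50, where 80.1% of all rows were called (36.0% higher and 44.1% lower). At least 2-fold changes were called for 26 members, 16 higher and 10 lower. This was 52.0% against a background of 21.4% (13.1% higher and 8.27% lower). Of the 16 large increases 9 were fixed by the filter, and phtm was a further fixed member with a smaller change. Without these 10 members, 17 of 40 changed at least 2-fold, 7 higher and 10 lower, or 42.5% against 18.4% of rows treated alike. With dim groups at their bound, 11 members were higher and 8 lower by at least 2-fold, or 38.0% against 19.0%. The median log2 fold change was 0.39, or -0.07 without the fixed members, against -0.08 and -0.10 over all rows. The median absolute change was 1.16 against 0.46. If either grh overexpression array was left out, the count of at least 2-fold changes fell from 26 to 17, with 40 members tested, since a gene above 4 in that genotype alone then no longer met the filter.

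**Figure D3:**
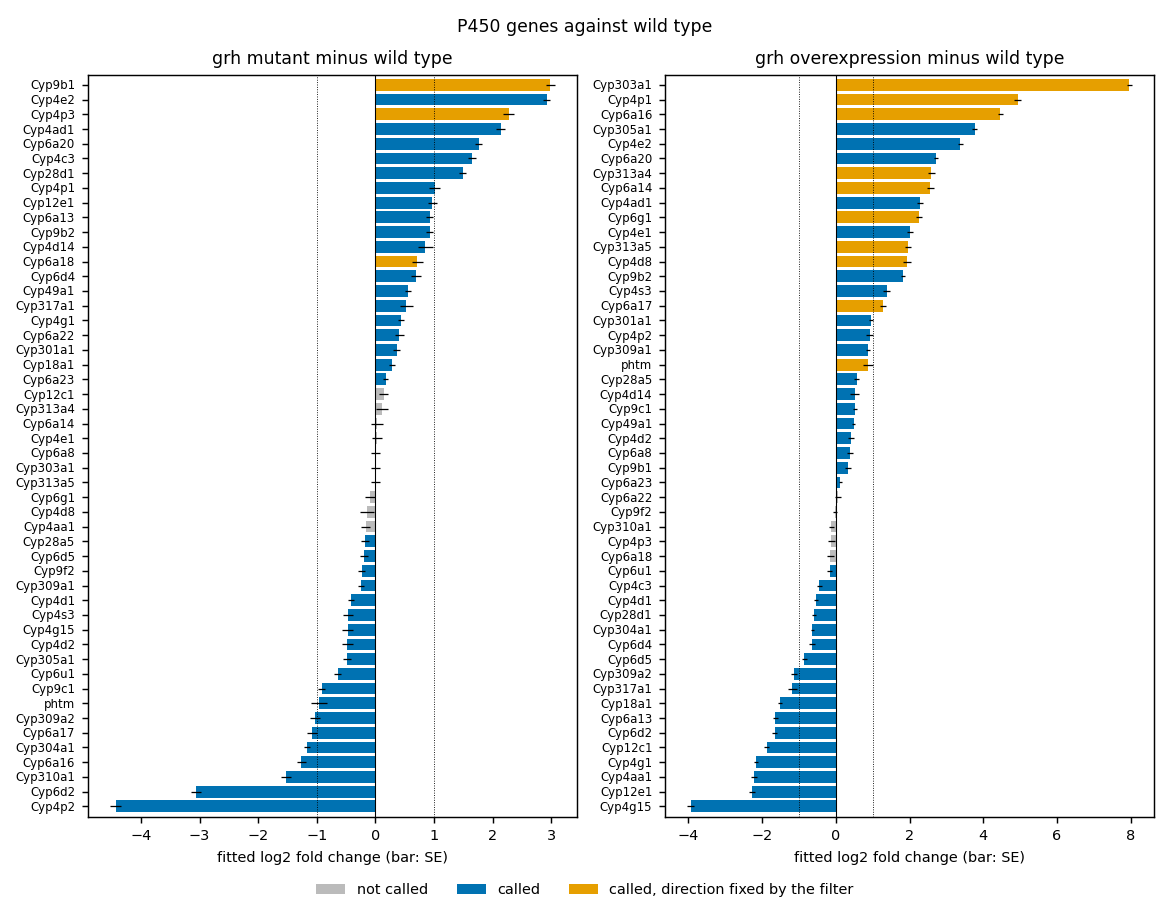
Fitted log2 fold change (x axis, bars with SE) of each tested P450 gene (y axis) in grh mutant and in grh overexpression against wild type, with dotted lines at 2-fold in either direction. Orange bars are genes above 4 in that genotype alone, whose direction the filter fixed and whose fitted size rests on readings under 4 in wild type: 3 in grh mutant and 10 in grh overexpression.

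Between the altered genotypes, 28 members were higher and 17 lower in grh overexpression than in grh mutant, or 90.0%, where 86.6% of all rows were called (42.9% higher and 43.7% lower), and the arrays did not overlap for 49 members, where 93.5% of all rows did not. At least 2-fold changes were called for 18 higher and 13 lower members, 62.0% against a background of 36.1% (18.7% higher and 17.4% lower). Without 13 members fixed by the filter, the shares were 51.4% and 32.7%, and with dim groups at their bound 48.0% and 32.5%. By their group means, 14 of the 37 members that no single genotype carried through the filter were highest in grh overexpression, 13 in grh mutant and 10 in wild type. Over all rows of that kind, 33.2% were highest in grh overexpression, 35.3% in grh mutant and 31.5% in wild type.

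In the CYP3 clan, which holds the enzymes best known for detoxification, members went in every direction. Cyp6g1, known for its part in resistance to DDT and neonicotinoids, read 2.66 and 2.51 in wild type, 2.48 and 2.49 in grh mutant, and 4.87 and 4.82 in grh overexpression. Its rise was fixed by the filter and was at least 1.80-fold. Cyp6a20, linked to male aggression, rose in both altered genotypes, from 5.51 and 5.55 in wild type to 7.28 and 7.30 in grh mutant and 8.22 and 8.26 in grh overexpression. That is 3.40-fold (limma adjusted p = 2.75e-10) and 6.56-fold (adjusted p = 3.49e-12). Cyp28d1, which responds to nicotine, was highest in grh mutant, at 9.20 and 9.13 against 7.72 and 7.64 in wild type and 7.06 and 7.12 in grh overexpression. It was 2.80-fold higher in grh mutant (adjusted p = 6.73e-10) and fell by 0.58 on the log2 scale in grh overexpression (adjusted p = 1.65e-06).

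Some CYP3 members fell in grh mutant and moved less, or the other way, in grh overexpression. Cyp6d2 had the largest decrease in grh mutant among P450 genes above 4 in both genotypes, from 7.98 and 7.90 in wild type to 4.79 and 4.97, or 8.34-fold (limma adjusted p = 3.29e-11). It was also lower in grh overexpression, at 6.31 and 6.24, or 3.17-fold (adjusted p = 2.42e-09). Cyp6a16 was dim in wild type at 3.77 on both arrays and in grh mutant at 2.54 and 2.47, and read 8.26 and 8.21 in grh overexpression. It was at least 18.8-fold higher there, in a direction fixed by the filter. Cyp9c1 was 1.89-fold lower in grh mutant and, in grh overexpression, 1.43-fold higher (adjusted p = 4.38e-08 and 6.1e-06), and the 2 altered genotypes differed by 1.43 log2 units. Cyp310a1 read 4.70 on both wild type arrays, 3.23 and 3.12 in grh mutant, and 4.59 and 4.57 in grh overexpression. It was at least 1.63-fold lower in grh mutant, and in grh overexpression the difference from wild type was -0.12 (95% confidence interval -0.30 to 0.06), or -0.22 and called under quantile normalization (adjusted p = 0.0209). Cyp6u1 was 1.56-fold lower in grh mutant (limma adjusted p = 1.76e-06), and its 1.13-fold decrease in grh overexpression (adjusted p = 0.0261) lost its call when either array of that group, or wild type replicate 1, was left out (adjusted p between 0.0686 and 0.0978).

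Other CYP3 members rose in grh mutant. Cyp9b1 stayed dim in wild type at 2.37 and 2.38 and in grh overexpression at 2.70, and read 5.33 and 5.38 in grh mutant, at least 2.56-fold higher with the direction fixed. Its neighbour Cyp9b2 was measured everywhere and rose stepwise over the genotypes, from 8.12 and 8.05 in wild type to 9.01 and 9.0 in grh mutant and 9.98 and 9.83 in grh overexpression. Cyp9b2 was 1.90-fold and 3.54-fold higher than wild type (limma adjusted p = 3.5e-08 and 6.51e-11). Cyp6a13 was 1.90-fold higher in grh mutant and 3.12-fold lower in grh overexpression (adjusted p = 5.6e-08 and 2.73e-10), reading 7.54 and 7.50 in wild type, 8.49 and 8.40 in grh mutant, and 5.87 and 5.88 in grh overexpression. Cyp6d4 followed that order with smaller steps, 1.62-fold higher and 1.56-fold lower. Cyp309a2 was lower in both altered genotypes, 2.04-fold in grh mutant and 2.19-fold in grh overexpression, while its neighbour Cyp309a1 was 1.19-fold lower and 1.84-fold higher.

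A few bright CYP3 members moved by less than 0.4 log2 units against wild type. Cyp6a23 read between 9.0 and 9.19 on all 6 arrays, with a change of 0.18 in grh mutant (limma adjusted p = 0.00307). Its change in grh overexpression was 0.12 (adjusted p = 0.0246), a call that ended when either wild type array was left out (adjusted p = 0.0564 and 0.0699), without grh overexpression replicate 1 (0.134), under median centring (0.402) and without the intensity trend of the test (0.0577). Cyp9f2 read between 7.87 and 8.15, and its change in grh overexpression was -0.02 (95% confidence interval -0.14 to 0.10). Its change in grh mutant was -0.24 (adjusted p = 0.0015), and grh overexpression exceeded the mutant by 0.22 (adjusted p = 0.00256). The inducible gene Cyp6a8 differed by 0.00 in grh mutant (interval -0.17 to 0.17) and was 1.30-fold higher in grh overexpression (limma adjusted p = 0.000792). Known members at or near the floor in every genotype were the insecticide gene Cyp6a2, at most 2.73, Cyp6g2, known from juvenile hormone tissue, at most 2.30, Cyp6t3, named in ecdysone synthesis, at 2.27, and Cyp6w1, at most 2.73. Of the members not yet named, Cyp6d5 was lower in both altered genotypes, with log2 fold changes of -0.20 in grh mutant and -0.86 with grh overexpressed. Cyp28a5 was lower in grh mutant (-0.18) and higher in grh overexpression (0.57). The calls of Cyp6d5 and Cyp28a5 in grh mutant ended when wild type replicate 1 was left out (adjusted p = 0.0611 and 0.186), and also with no filter on low values (0.0974 and 0.132). Leaving out wild type replicate 2 or grh mutant replicate 1 ended that of Cyp6d5 as well (0.0572 and 0.131), and leaving out grh mutant replicate 2 that of Cyp28a5 (0.191).

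In the CYP4 clan, whose members act mainly on fatty acids and related lipids, 11 of 17 tested genes were higher and 5 lower in grh overexpression, where 36.0% of all rows were higher and 44.1% lower. Of the 11 increases 4 were fixed by the filter, which leaves 7 higher and 5 lower of 13. In grh mutant 7 were higher, 1 of them fixed, and 5 lower, where 36.3% of all rows were higher and 44.6% lower. Cyp4e2 rose in both, from 4.78 and 4.89 in wild type to 7.75 and 7.76 in grh mutant and 8.25 and 8.18 in grh overexpression. That is 7.56-fold (limma adjusted p = 1.36e-11) and 10.4-fold (adjusted p = 1.16e-12). Cyp4ad1 also rose in both, from 3.50 and 3.49 to 5.69 and 5.56 and to 5.79 and 5.78, at least 3.09-fold and at least 3.45-fold. Cyp4c3 was 3.14-fold higher in grh mutant, at 8.19 and 8.18 against 6.56 and 6.52 in wild type, and 1.36-fold lower in grh overexpression, at 6.03 and 6.14. Cyp4aa1 fell in grh overexpression, from 6.85 and 6.68 to 4.60 and 4.49, or 4.66-fold (adjusted p = 2.74e-10), and its change in grh mutant was -0.17 (interval -0.35 to 0.01), or -0.25 and called without wild type replicate 2 (adjusted p = 0.0258).

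Other members of that clan, apart from the neighbouring genes described below, gave these values. Cyp4s3 was 2.60-fold higher in grh overexpression and 1.39-fold lower in grh mutant, and Cyp4d1 was 1.45-fold lower in grh overexpression and 1.33-fold lower in grh mutant. Cyp4d2 was 1.33-fold higher in grh overexpression and 1.40-fold lower in grh mutant. Cyp4d14 was 1.43-fold and 1.80-fold higher in grh overexpression and grh mutant, the former not called with no filter on low values (adjusted p = 0.107). Cyp4d8, Cyp313a4 and Cyp313a5 were above 4 in grh overexpression alone, where they were higher by at least 1.30-fold, 1.87-fold and 1.18-fold, and stayed between 2.27 and 2.52 elsewhere. Of the other Cyp313 genes, Cyp313a1 and Cyp313a2 were at 2.27 on all arrays, and Cyp313a3 and Cyp313b1 stayed dim. The sex-biased gene Cyp4d21 was at 2.27 on all arrays, and Cyp4e3 was at 2.31 outside grh overexpression, where it read 2.49 and 3.02.

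Many P450 genes lie beside each other, so neighbours could be compared. In the gene table, 45 P450 genes lay in 16 runs with no other protein-coding gene between them, and 26 of the 45 were detected. In 8 runs at least 2 genes were tested. In 4 of these 8 the neighbours were called in opposite directions in grh mutant, in 4 of 8 in grh overexpression, and in 6 of 8 between the altered genotypes. These counts include rises fixed by the filter, such as those of Cyp6a14 and phtm in grh overexpression. With 80.9%, 80.1% and 86.6% of all rows called in these comparisons and calls in both directions, nothing particular to neighbours is read from these counts. The run of Cyp4p2, Cyp4p1 and Cyp4p3 on chromosome arm 2R gave a different pattern for each gene. Cyp4p2 read 6.72 and 6.83 in wild type, 2.42 and 2.27 in grh mutant, and 7.80 and 7.58 in grh overexpression. It was at least 6.84-fold lower in the mutant (limma adjusted p = 9.58e-12) and in grh overexpression 1.89-fold higher (adjusted p = 2.93e-06). Cyp4p1 read 2.41 and 2.61, 3.60 and 3.43, and 7.47 and 7.43 in that order, at least 10.9-fold higher in grh overexpression with the direction fixed. Cyp4p3 read 2.97 and 3.23, 5.35 and 5.39, and 2.96 and 2.98, at least 2.58-fold higher in grh mutant, again fixed. So Cyp4p2 was low in the mutant alone, Cyp4p1 high in grh overexpression alone and Cyp4p3 high in the mutant alone.

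A second run on 2R held Cyp4ad1, Cyp4e2 and Cyp4e1. The first 2 rose in both altered genotypes, as given above. Cyp4e1 read 4.18 and 4.22 in wild type, 4.24 and 4.21 in grh mutant, and 6.14 and 6.28 in grh overexpression. It was 4.02-fold higher in grh overexpression (limma adjusted p = 6.55e-10), and its change in the mutant was 0.02 (interval -0.16 to 0.20). Next to each other lay also Cyp6a14, at least 4.13-fold higher in grh overexpression with the direction fixed, and Cyp6a13, which fell there.

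The longest run, also on 2R, held 9 genes from Cyp6a22 to Cyp317a1, of which 6 were detected. Cyp6a20, in its middle, rose in both altered genotypes, while Cyp6a23 and Cyp6a8 changed by at most 0.38 log2 units in either comparison with wild type. Cyp6a17, which affects temperature preference and lies beside Cyp6a23, read 3.41 and 3.31 in wild type, 2.27 on both mutant arrays, and 4.70 and 4.58 in grh overexpression, at least 1.56-fold higher with the direction fixed. Cyp317a1, at the far end, read 4.72 and 4.73, 5.25 and 5.25, and 3.73 and 3.36. It was 1.44-fold higher in grh mutant and at least 1.65-fold lower in grh overexpression (limma adjusted p = 0.000918 and 1.19e-06), and the former call ended with no filter on low values (adjusted p = 0.0594). Cyp6a22 was 1.33-fold higher in grh mutant, and in grh overexpression it differed by 0.05 (interval -0.13 to 0.23), a difference whose sign turned under quantile normalization and median centring. Cyp6a19, Cyp6a9 and Cyp6a21 were dim or at the floor. The probe letters were not used here, so cross-hybridisation between such similar copies was not tested.

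**Figure D4:**
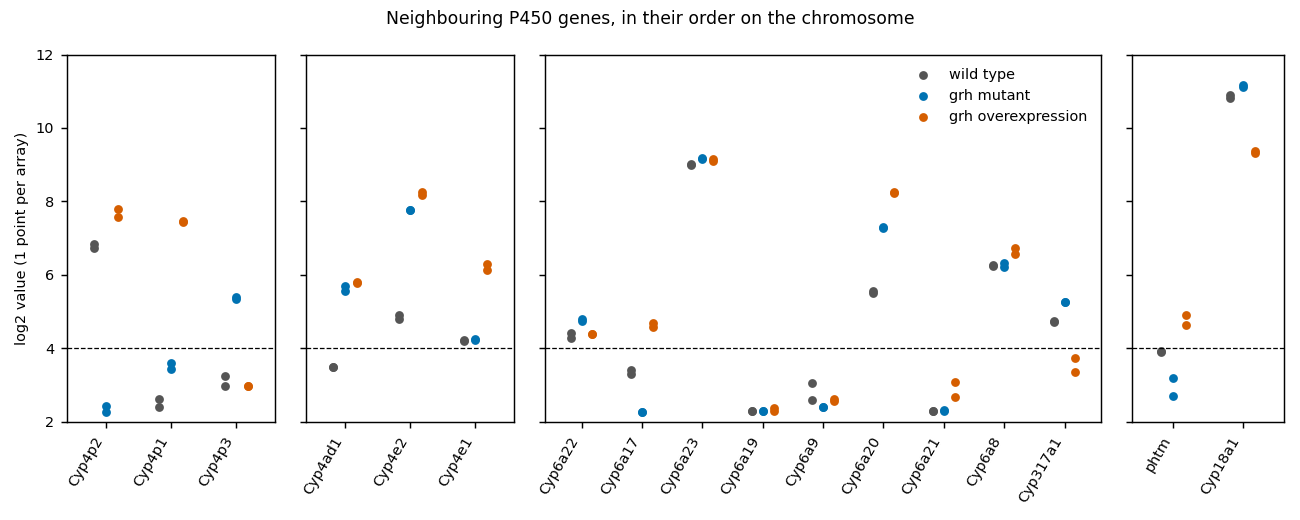
Log2 value (y axis, 1 point per array, dashed line at 4) of P450 genes in 4 runs of neighbours, in their order on the chromosome (x axis), coloured by genotype. The 3 Cyp4p genes differ in the genotype that stands apart, and phtm and Cyp18a1 move in opposite directions in grh overexpression. The filter fixed the direction of Cyp4p1, Cyp6a17 and phtm in grh overexpression and of Cyp4p3 in grh mutant.

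The 4 tested genes listed as redox partners of P450 enzymes moved by less than 2-fold against wild type. So did most rows: changes of at least 2-fold were called for 17.8% of all rows in grh mutant and 21.4% in grh overexpression. Of the list of 6, 4 were on the array under 1 symbol, and all 4 were tested; the P450 reductase gene Cpr and the ferredoxin reductase gene dare were not analysed here. The cytochrome b5 gene Cyt-b5 read 11.60 and 11.50 in wild type, 10.93 and 10.92 in grh mutant, and 11.49 and 11.42 in grh overexpression. The listed gene Cyt-b5-r fell in grh mutant and rose in grh overexpression, from 8.49 ± 0.08 to 7.76 ± 0.01 and to 9.15 ± 0.00 (SD, n = 2). Whether its product serves P450 enzymes was not checked. The ferredoxin gene Fdx2 rose in both, to 9.30 ± 0.02 and 9.15 ± 0.06 from 8.79 ± 0.04, and Fdx1 fell in grh overexpression from 5.62 ± 0.07 to 5.02 ± 0.12.

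Regulators named for P450 genes in xenobiotic and hormone responses were read from a list of 10, of which 9 were tested. In grh overexpression 8 were lower and none higher, where 44.1% of all rows were lower and 36.0% higher. In grh mutant 5 were higher and 2 lower, where 36.3% of all rows were higher and 44.6% lower, and 2 of the 5 increases (Keap1 and ss) were fixed by the filter. The nuclear receptor gene Hr96 was at 7.41 ± 0.04 (SD, n = 2) in wild type, 7.17 ± 0.05 in grh mutant and 6.83 ± 0.11 in grh overexpression. The stress factor gene cnc was at 8.18 ± 0.03, 8.22 ± 0.02 and 7.84 ± 0.03, and Keap1, which holds its product in check, was at 3.65 ± 0.03, 4.60 ± 0.14 and 3.61 ± 0.01. The juvenile hormone synthesis gene jhamt was at the floor on every array.

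Markers of tissues in which detoxifying P450s are known moved on the same arrays. Over all rows, 36.3% were higher and 44.6% lower in grh mutant, and 36.0% and 44.1% in grh overexpression. All 6 midgut markers were higher in grh mutant, betaTry and Mur29B in a direction fixed by the filter, and in grh overexpression 3 were higher and 1 lower, with the log2 of their summed signal at 9.14 to 9.25 in wild type, 11.01 to 11.05 in grh mutant and 11.16 to 11.19 in grh overexpression. The genes listed for Malpighian tubule were not checked for expression in other tissues. All 5 of them on the array were lower in grh overexpression, and in grh mutant 2 were higher and 2 lower. The fall of byn was fixed by the filter in both, and the sums were 11.43 to 11.46, 11.69 to 11.73 and 10.82 to 10.86. Of 4 tested fat body markers 3 were lower in grh overexpression, and 2 were higher and 1 lower in grh mutant, with sums of 12.90 to 12.93, 12.85 to 13.00 and 12.70 to 12.73; Lsp2 and Fbp1 were at the floor. Of 6 epidermis and cuticle markers 5 were higher in grh overexpression, Cpr64Ac and sha in a fixed direction, and 1 was higher and 3 lower in grh mutant, with sums of 13.07 to 13.09, 13.23 to 13.26 and 13.62 to 13.64. Of 4 tracheal markers 1 was higher and 1 lower in grh overexpression, and 2 were higher in grh mutant, with sums of 13.25 to 13.28, 13.41 and 13.36 to 13.38. Of 4 tested markers of the prothoracic gland, mld and Npc1a were higher in grh overexpression, sro and tor were higher in a direction fixed by the filter, and 2 were higher and 1 lower in grh mutant, with sums of 9.10, 9.51 to 9.59 and 9.32 to 9.39. Each sum follows its brightest genes and was not read as an amount of tissue. The brightest of the epidermis list was TwdlD, with means of 12.72 in wild type, 13.10 in grh mutant and 12.65 in grh overexpression. The genes kkv, knk and Ddc fell in grh mutant. Vha55 was the brightest of the Malpighian tubule list, at 11.38, 11.65 and 10.80 in that order. In both altered genotypes Mal-A3 was the brightest midgut gene, at 10.30 and 10.66. The part of these tissues in the P450 changes was not tested.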

How the data were processed

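The authors deposited 1 log2 value per probe set and array; the log2 scale was read from the values, which run from 2.27 to 14.1. The submitters' processing notes name GCRMA and MAS5 without role or version, and the genome build was not given in the sources used here. The deposited values were used as they are. Symbols came from the platform annotation, updated by gene identifier to the Release 6 plus ISO1 MT gene table, which matched 13544 of 13647 singly named probe sets and also gave neighbours. The symbol phm of the rule was taken as phtm, whose synonyms hold phm and Cyp306a1.

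The 183 control probe sets were left out, and the probe set with the highest mean stood for a gene. The 8632 rows with 2 or more arrays at 4 or higher were tested with limma 3.58.1 (R 4.3.3), in a 3-group means model of all 6 arrays (eBayes with intensity trend, 3 residual and 7.93 prior degrees of freedom). P-values are two-sided and adjusted by Benjamini-Hochberg over all rows, and those under 0.05 were calls. A group with both arrays under 4 was dim, and a fold against it is written "at least", from the higher of 4 and its mean. A p-value beside such a fold is that of the fitted difference, not of the bound. An exact permutation test was not run, because 2 arrays against 2 are too few. Arrays have no depth, and their number limits the precision.

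The members and lists were chosen with earlier results of these data known. The genes named were the ecdysteroid P450s, the 10 largest called increases and decreases per contrast against wild type, and members with a described function, and any other member could be named as a description. Alternatives were other filters, quantile normalization, median centring, no trend, 2-group fits, uncollapsed probe sets, a replicate block and leaving out each array. No sequence table was at hand, so no sequences are shown.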

Additional observations from a re-analysis of the deposited data

How the results depend on the processing

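Most calls did not depend on the processing. The number of P450 genes called stayed within 1.5 times its value under every alternative run, between 34 and 41 in grh mutant against wild type, 33 and 50 in grh overexpression against wild type, and 34 and 53 between the altered genotypes. The number changed at least 2-fold lay between 12 and 16, 17 and 26, and 21 and 31. The lowest count for grh overexpression against wild type, 17, came when one or the other overexpression array was left out, where 40 rather than 50 members were tested. Leaving out 1 array at a time gave 12 to 16, 17 to 26 and 21 to 31. Of 1979 values for single genes under an alternative, 1931 kept their direction and their side of the threshold, 22 lost the call, 17 gained it and 9 changed sign. The signs that turned were all of small changes not called in the fit reported: Cyp4e1 (-0.07) and Cyp6a14 (-0.08) in grh mutant and Cyp6a22 (-0.08) in grh overexpression under quantile normalization, Cyp6a22 (-0.04) under median centring, and, with an array left out, Cyp6a14 (between -0.11 and 0.17), Cyp6a22 (-0.02 to 0.11), Cyp9f2 (-0.05 to 0.01) and, between the altered genotypes, Cyp309a2 (-0.23 to 0.01).

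Quantile normalization and median centring moved the median of all rows by at most 0.12, from -0.01 to -0.13 between the altered genotypes. With the replicate number as a block, 40, 45 and 46 P450 genes were called and 15, 26 and 31 changed at least 2-fold, in the same order of comparisons; 1 single-gene call was gained (Cyp4d1 between the altered genotypes, adjusted p = 0.0365). Deviations of arrays with the same number correlated by 0.165, 0.245 and 0.136, but the labels do not say what a number marks, and with 2 numbers the samples are taken to share only a number. The floor limits every statement on the 35 genes that were not detected.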

Other observations

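Some probe sets annotated to P450 genes lay outside the naming rule. A probe set annotated to both shn, a zinc finger gene of Dpp signalling, and Cyp6v1 read 9.28 and 9.52 in wild type, 7.18 and 7.31 in grh mutant, and 7.52 and 7.70 in grh overexpression. The probe set of Cyp6v1 alone stayed between 2.58 and 2.81 on the same arrays. The probe set shared by Cyp12d1-d and Cyp12d1-p, known from insecticide resistance, read 2.27 on the wild type and mutant arrays and 2.47 and 3.04 in grh overexpression, while that of Cyp12d1-d alone stayed between 2.28 and 2.29 on all arrays.

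Among P450 genes just under the detection minimum, Cyp9h1 read 4.10 and 3.90 in grh overexpression, 3.59 and 3.83 in wild type, and 3.0 and 3.24 in grh mutant. Cyp4d20 read 3.74 and 3.88 in grh overexpression and between 2.95 and 2.98 elsewhere. Cyp28d2, the neighbour of Cyp28d1, read 3.77 and 3.43 in wild type and between 3.18 and 3.21 in the other genotypes. Just above the minimum, Cyp6a18 read 4.04 and 4.20 in grh mutant, and Cyp313a5 read 4.20 and 4.27 in grh overexpression. None of the dim genes was tested.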
